A study of Rattus norvegicus with 40 samples.

Results

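The collagen genes of rat liver were followed across 12 groups of microarrays that crossed 3 liver states, 2 injections and 2 RNA fractions. A member was any array feature whose annotation gave exactly 1 gene symbol of the Col family form, and where a gene had several features the feature with the highest mean over the 40 arrays stood for it. This gave 25 collagen genes, from 27 features, of 14497 genes named in the same way, and all 25 were bright enough to be tested among 10860 features. They were 10 fibrillar collagens (Col1a1, Col1a2, Col2a1, Col3a1, Col5a1, Col5a2, Col5a3, Col11a1, Col11a2 and Col27a1), 3 basement membrane collagens (Col4a1, Col4a3 and Col4a4) and 12 others. The others were Col6a4 of the beaded filaments, Col7a1 of the anchoring fibrils, the network formers Col8a1 and Col10a1, the fibril-associated Col9a1, Col9a2, Col12a1, Col14a1 and Col16a1, and the transmembrane Col13a1, Col17a1 and Col23a1. Col4a2, Col6a1, Col6a2, Col6a3, Col15a1 and Col18a1 were not analysed here.

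The livers came from Sprague Dawley rats in 3 states. Refed adults of 125 to 150 g, whose hepatocytes the labels describe as not proliferating, were fasted for 48 h, injected intraperitoneally and, 60 min later, fed for 3 h. Hepatectomy adults were injected 1 h before partial hepatectomy and the regenerating liver, with synchronously proliferating hepatocytes, was taken 24 h afterwards. Fetuses, with asynchronously proliferating hepatocytes, were injected on embryonic day 19 and delivered 24 h later on day 20. Each state received either the solvent DMSO or rapamycin, an inhibitor of the growth-regulating kinase mTOR, dosed in adults by weight (250 µg for each 100 g) and in fetuses at 50 µg each. Polysomal RNA separated by density on sucrose and total RNA were hybridised, with 3 biological replicates per group in adults and 4 in fetuses. Polysome and total arrays of the same state, injection and replicate number were read as 1 liver, which the titles do not state. The stated subject of the series is the control of hepatic translation by mTOR, and polysomal RNA is the RNA bound by several ribosomes at once. The labels mention pooling of the polysome preparations but not of which material, so the p-values below measure the spread between arrays, which may be technical in part.

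Collagens are triple-helical proteins of the extracellular matrix. Fibrillar collagens such as types I, III and V build the tensile fibres of connective tissue, type IV collagens form the sheet-like network of basement membranes, and the fibril-associated types bind to the surface of fibrils. In liver the fibrillar collagens are made mainly by stellate cells and portal fibroblasts, and their chains are translated on ribosomes at the endoplasmic reticulum, hydroxylated, folded with the help of a dedicated chaperone and then trimmed and cross-linked outside the cell.

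Values are the logarithm to base 2 of the authors' normalised intensity. Each is a level relative to the other transcripts of the same fraction, and levels of different genes are not comparable on it. The arrays had medians between 7.09 and 7.40, and the lowest correlation of an array with the mean of its own group was 0.946. The time-point label of the 3 hepatectomy DMSO polysome arrays speaks of refeeding while their titles speak of hepatectomy. They were used by title, and over all features they correlated at 0.976 to 0.987 with the mean of the hepatectomy rapamycin polysome arrays and at 0.936 to 0.948 with the mean of the refed DMSO polysome arrays. For comparisons between states or fractions that rest on these 3 arrays, results without them are given where the call changed. Those results come from the rapamycin livers alone, which changes the injection and, for polysome against total RNA, uses fewer arrays. These changes cannot be told apart from that of leaving out the arrays. Rapamycin against DMSO comparisons that use them have no version without all 3. Albumin, the defining hepatocyte marker, had group means of 14.17 to 14.43. Other hepatocyte markers were less even: Cps1 ran from 12.74 to 13.97 and Hnf4a from 11.97 to 12.98, while Apoa1, Ttr and Tf spanned less than these. Markers of erythroid cells were far higher in fetal than in refed total RNA, with a median log2 difference of 4.72. All 5 of 5 were past the threshold as higher, against 28.1% of all features.

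Across the 12 groups the collagens spanned less than all tested features did, in a comparison not matched for intensity. The group means of a collagen spanned a median of 0.59 log2 units, against 1.01 over all tested features, and 7 of the 25 (28%) spanned more than 1 unit, against 51.1% of features. These 7 were Col14a1 at 2.62, Col1a1 at 1.91, Col1a2 at 1.75, Col3a1 at 1.44, Col12a1 at 1.36, Col5a2 at 1.18 and Col4a1 at 1.08. Just below the limit of 1 stood Col27a1 at 0.99 and Col8a1 at 0.93. The flattest were Col6a4 at 0.31 and Col17a1 at 0.32, against standard deviations between arrays within groups of 0.15 and 0.168 for these genes. Of the 25 collagens, 21 lay in the lowest of 3 equal bands of mean intensity. The 4 in the middle band (Col1a1, Col1a2, Col3a1 and Col14a1) were all among the 7. The part of dim signal in the narrow spans was not tested.

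**Figure D1:**
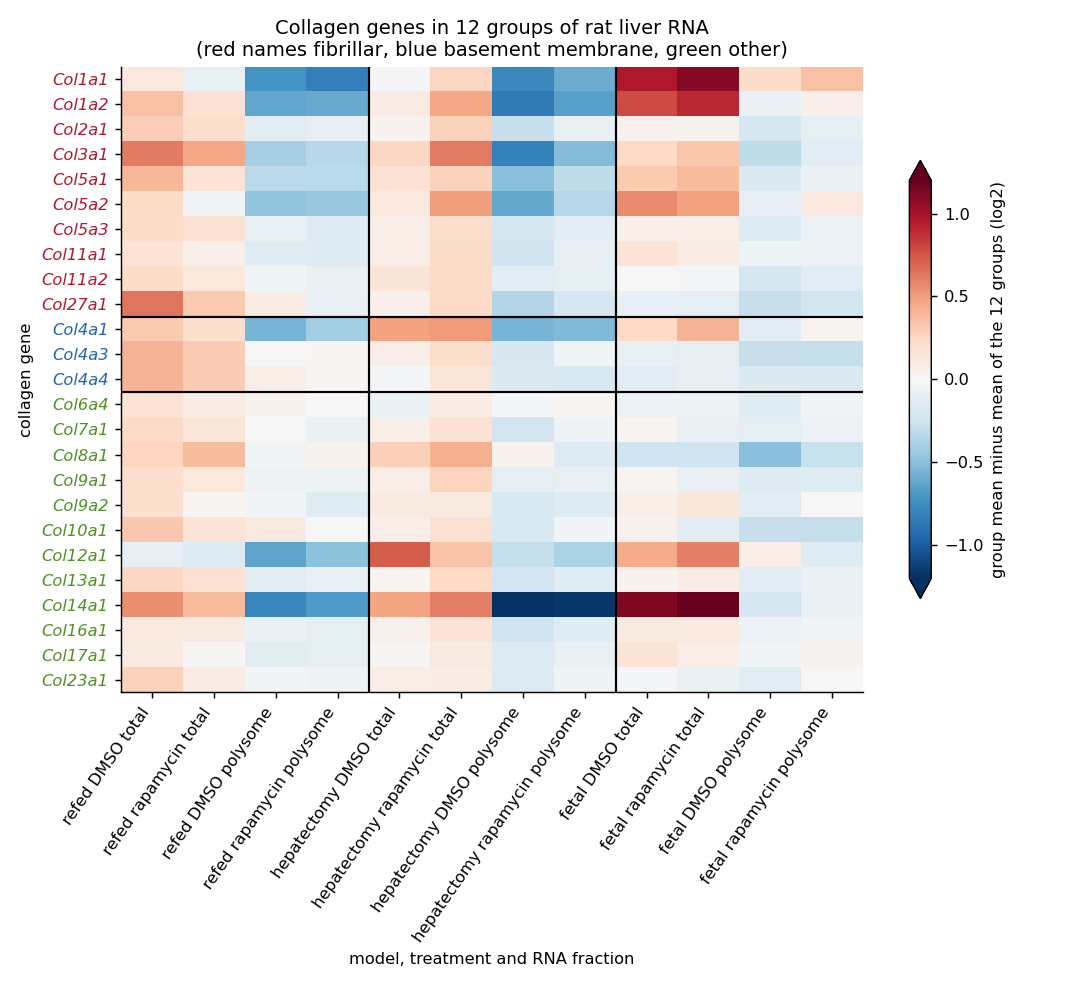
Heat map of the 25 collagens in the 12 groups. Colour gives each group mean minus the mean of the 12 group means on the log2 scale, and it is capped at 1.2 in each direction, which Col14a1 exceeds. Polysome columns are mostly below the gene's mean and total columns above it, with the widest contrasts in Col14a1, Col1a1, Col1a2 and Col3a1.

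The 3 liver states were first compared in total RNA of DMSO livers, with the test in limma fitted over all 10860 features, Benjamini-Hochberg adjustment and a threshold of 0.05. In fetal against refed liver 5 of 25 were higher and 4 lower, where 28.1% and 19% of all features were. Between fetal and hepatectomy liver the counts were 4 higher and 1 lower against 19.9% and 17%, and after hepatectomy against refed liver they were 1 higher and 3 lower (12%) against 12.4% and 5.03%. The share of collagens called was below that of all features in each direction, save for the lower calls after hepatectomy. The collagens that passed are described by their roles.

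The type I chains, which assemble with each other into the main fibre of connective tissue, were highest in fetal liver. Col1a1 read 9.43, 9.15 and 9.27 in the 3 refed livers, 9.21, 9.29 and 8.93 after hepatectomy and 10.06, 9.74, 10.29 and 10.38 in the 4 fetal livers. Every fetal array lay above every adult array, and the 2 adult states overlapped. The fetal level was 1.78-fold that of refed liver (log2 difference 0.83, SE 0.154, adjusted p = 3.55e-05) and 1.97-fold that of hepatectomy liver (0.98, SE 0.154, adjusted p = 4.57e-06). Col1a2 read 9.85, 9.47 and 9.62 in refed liver, 9.50, 9.49 and 9.19 after hepatectomy and 10.10, 9.69, 10.29 and 10.23 in fetal liver. Its fetal values stood clear of the hepatectomy values, by 0.69 (SE 0.155, adjusted p = 0.0006), but overlapped the refed values, from which they differed by 0.43 (SE 0.155, adjusted p = 0.0213). The refed comparison of Col1a2 lost its call without any of fetal arrays 3 or 4 or refed arrays 2 or 3, whereas no single array ended a call of Col1a1.

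Col3a1, the type III chain that forms finer, more elastic fibres, did not follow type I. It read 9.77, 9.15 and 9.32 in refed liver, 9.32, 8.87 and 8.91 after hepatectomy and 8.83, 8.75, 9.32 and 9.21 in fetal liver. The 3 states overlapped, and no total RNA comparison of Col3a1 passed the threshold. Of the type V chains, which start and limit the width of type I fibrils, Col5a2 read 7.84, 7.67 and 8.09 in refed liver, 7.62, 7.95 and 7.70 after hepatectomy and 7.97, 7.88, 8.52 and 8.46 in fetal liver. Its fetal mean was higher than that of refed liver by 0.34 (SE 0.137, adjusted p = 0.038) and than that of hepatectomy liver by 0.45 (adjusted p = 0.00888), with overlapping arrays in both. The first call was lost without any of fetal arrays 3 or 4 or refed arrays 1 or 2, and the second without hepatectomy array 1. Col5a1 read 8.26, 8.30 and 8.42 in refed liver, 8.13, 8.21 and 7.97 after hepatectomy and 8.19, 8.03, 8.26 and 8.49 in fetal liver, and no comparison passed.

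Of the fibril-associated collagens, Col14a1, which coats type I fibrils, rose with type I in fetal liver. It read 9.92, 9.41 and 9.89 in refed liver, 9.90, 9.36 and 9.69 after hepatectomy and 10.16, 10.23, 10.41 and 10.42 in fetal liver, where every array exceeded every adult array. The differences were 0.57 against refed (SE 0.199, adjusted p = 0.0193) and 0.65 against hepatectomy liver (SE 0.199, adjusted p = 0.00962). Leaving out DMSO array 2 of the refed livers ended the call against refed liver, and leaving out DMSO array 2 of the hepatectomy livers ended the other. Col12a1, a second fibril-associated collagen found in tissues under tension, was the only collagen past the threshold as higher after hepatectomy than in refed liver, at 7.81, 8.40 and 8.16 against 7.45, 7.23 and 7.21. The groups were apart, with a 1.77-fold difference (0.83, SE 0.142, adjusted p = 6.09e-05). In fetal liver it read 7.68, 7.76, 8.03 and 7.88, above refed liver by 0.54 (SE 0.133, adjusted p = 0.00107).

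A second set was lower in the proliferating livers. Col27a1, a fibrillar collagen known from developing cartilage, read 8.58, 8.43 and 8.64 in refed liver, 8.01, 8.01 and 7.90 after hepatectomy and 8.0, 7.67, 7.68 and 7.89 in fetal liver. Both proliferating states lay wholly below refed liver, by 0.58 after hepatectomy (log2 difference -0.58, SE 0.115, adjusted p = 0.000445) and by 0.74 in the fetus (-0.74, SE 0.108, adjusted p = 8.18e-07). Col4a3 and Col4a4, which pair with a further chain in specialised basement membranes such as that of the glomerulus, were lower in the same states. Col4a3 read 7.47, 7.31 and 7.31 in refed liver, 7.03, 7.07 and 7.01 after hepatectomy and 7.004, 6.83, 6.61 and 7.02 in the fetus. Its log2 difference from refed liver was -0.33 after hepatectomy (SE 0.0991, adjusted p = 0.0189) and -0.50 in the fetus (adjusted p = 4.04e-05), and that of Col4a4 was -0.42 (adjusted p = 0.00679) and -0.53 (adjusted p = 6.73e-05). The hepatectomy call of Col4a3 was lost without refed array 1 or hepatectomy array 3, and under cyclic loess scaling (adjusted p = 0.0837). Both genes were dim, with means over all arrays of 6.94 (Col4a3) and 6.73 (Col4a4), against 6.7 for the intensity filter. The fetal DMSO total mean of Col4a4 was 6.61. The part of dim signal in these differences was not tested. Col4a1, the widespread type IV chain of vessel and sinusoid walls, read 8.19, 7.96 and 8.46 in refed liver, 8.26, 8.50 and 8.37 after hepatectomy and 8.04, 8.02, 8.34 and 8.14 in fetal liver, and no total RNA comparison of it passed. Col8a1, a short-chain network former of vessel walls, was lower in fetal liver than in refed liver (-0.50, adjusted p = 0.00585) and than after hepatectomy (-0.53, adjusted p = 0.00504).

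The promoter sequences of 4 members of these sets are shown because the genes moved together or in opposite directions between states. Col4a3 and Col4a4 lie head to head, 412 bases apart between their starts, so that their windows share 88 bases. Both, at dim signal, were lower in hepatectomy and fetal liver than in refed liver with DMSO. Col1a2 was higher in fetal liver and Col27a1 lower. Each is the 250 bases before the start of the gene in RefSeq on build GRCr8, printed 5′ to 3′ on the gene's strand, and capitals mark matches to the CCAAT box, the GC box and the TATA box.
Col4a3, chr9:91323740-91323989, plus strand: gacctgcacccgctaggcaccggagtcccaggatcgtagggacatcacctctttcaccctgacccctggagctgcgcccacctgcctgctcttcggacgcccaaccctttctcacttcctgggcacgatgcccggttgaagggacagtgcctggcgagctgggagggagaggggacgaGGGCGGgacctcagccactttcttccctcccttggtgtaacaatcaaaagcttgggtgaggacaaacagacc
Col4a4, chr9:91323578-91323827, minus strand: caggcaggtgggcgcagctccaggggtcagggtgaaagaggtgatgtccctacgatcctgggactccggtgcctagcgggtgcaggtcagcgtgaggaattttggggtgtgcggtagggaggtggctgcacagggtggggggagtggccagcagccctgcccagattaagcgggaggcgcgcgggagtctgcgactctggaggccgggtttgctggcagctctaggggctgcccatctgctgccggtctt
Col1a2, chr4:33518307-33518556, plus strand: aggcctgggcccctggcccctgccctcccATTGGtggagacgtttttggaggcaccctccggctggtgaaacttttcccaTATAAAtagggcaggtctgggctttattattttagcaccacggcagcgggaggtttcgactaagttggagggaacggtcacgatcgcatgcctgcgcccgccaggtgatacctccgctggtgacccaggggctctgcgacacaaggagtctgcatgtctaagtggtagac
Col27a1, chr5:81662658-81662907, plus strand: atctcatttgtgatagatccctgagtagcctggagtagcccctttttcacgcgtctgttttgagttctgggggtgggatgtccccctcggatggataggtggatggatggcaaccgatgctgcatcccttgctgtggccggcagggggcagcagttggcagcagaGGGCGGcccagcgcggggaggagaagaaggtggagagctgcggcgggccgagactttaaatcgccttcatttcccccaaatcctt
Both strands were searched. The letters of the CCAAT box were CCAAT, found on the other strand as ATTGG. Those of the GC box were GGGCGG, found on the other strand as CCGCCC. Those of the TATA box were TATAAA, found on the other strand as TTTATA. Of 27457 promoters 34.3% held the CCAAT box, 32.4% the GC box and 13.1% the TATA box. Of the 20 collagens with an entry, 7 (35%), 11 (55%) and 4 (20%) held them. Col1a2 carried 1 CCAAT box and 1 TATA box, Col27a1 and Col4a3 carried 1 GC box each, and the Col4a4 window held none of the 3. A match describes the letters only.

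**Figure D2:**
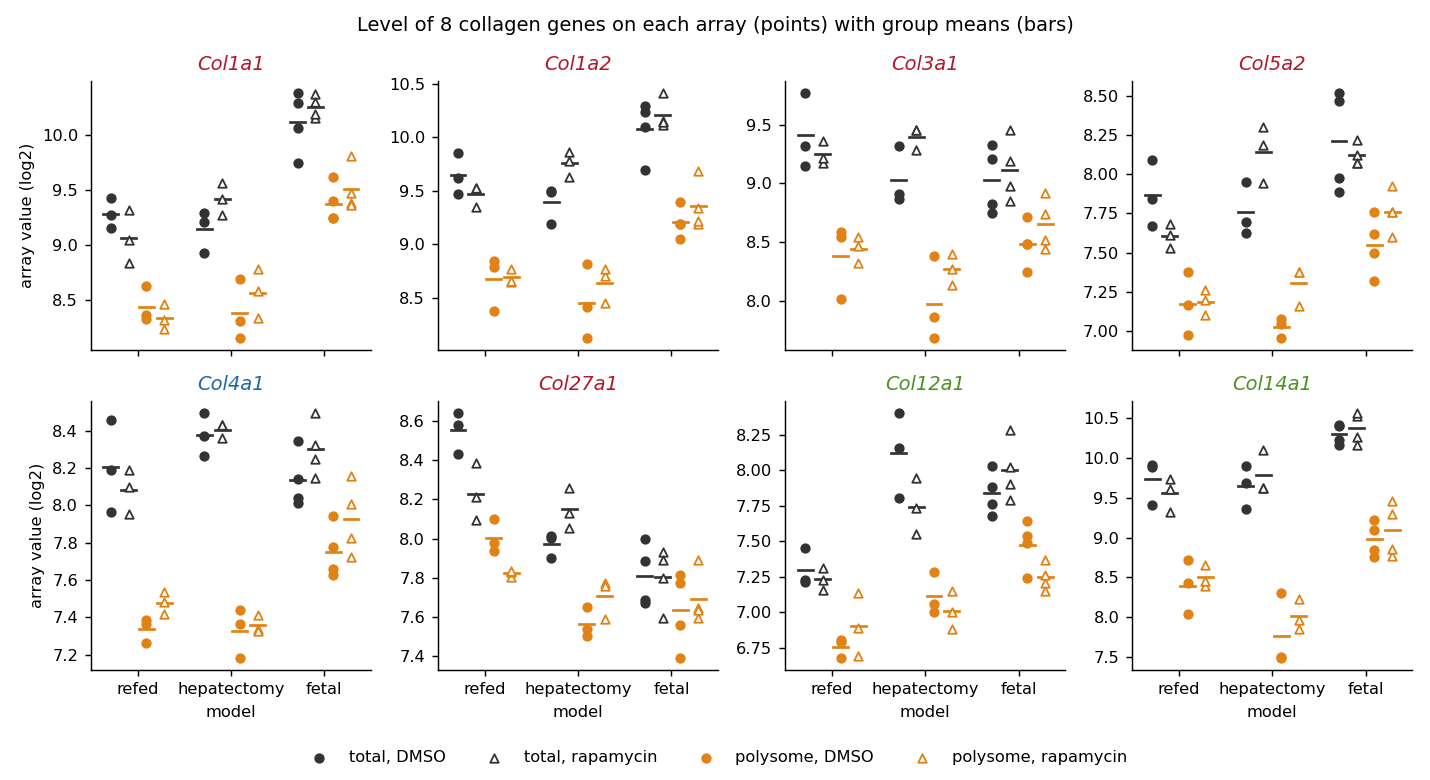
Log2 intensity of 8 collagens on each of the 40 arrays. Filled circles are DMSO and open triangles rapamycin, dark grey is total RNA and orange polysomal RNA, and bars are group means. In each state the total RNA means lie above the polysome means, the type I values are highest in fetal total RNA, and Col27a1 is highest in refed total RNA.

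The directions in total RNA depended on the scaling of the arrays. With each array centred on its median, or scaled by cyclic loess, 2 collagens were higher and 14 lower in fetal than in refed total RNA, in place of 5 and 4. Of all features 21.3% were higher and 31.3% lower with median centring, and 25% and 25.1% with cyclic loess. Col1a2, Col5a2 and Col14a1 then missed the threshold (adjusted p from 0.0761 to 0.347), and Col3a1 was called lower (-0.56 and -0.52). The share of lower calls among all features moved from 40.3% to 59.6% and 50.1% in this comparison, and from 28.8% to 55.1% and 40.2% after hepatectomy against refed liver. The median of all features in those comparisons was 0.036 and 0.016 as deposited and -0.144 and -0.107 with median centring.

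Hepatectomy liver was compared with the other states in the same way among rapamycin livers, with different calls. Against refed liver the lower set was not called: the differences were -0.081 for Col27a1 (adjusted p = 0.807), -0.098 for Col4a3 (adjusted p = 0.69) and -0.16 for Col4a4 (adjusted p = 0.485). The 2 collagens called in that comparison were higher after hepatectomy, Col12a1 by 0.51 (adjusted p = 0.0232) and Col5a2 by 0.54 (adjusted p = 0.0198), where 3.9% of features were higher and 2.58% lower. Between fetal and hepatectomy liver 3 collagens were higher and 5 lower, in place of 4 and 1 with DMSO, where 26.2% and 19.1% of features were. The higher ones were Col1a1 (0.84), Col1a2 (0.45) and Col14a1 (0.60), while Col5a2 lost its call with the sign turned (-0.023, adjusted p = 0.908). The lower ones were Col8a1 (-0.66), Col9a1 (-0.36), Col27a1 (-0.35), Col4a3 (-0.33) and Col10a1 (-0.32).

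The same states were compared in polysomes of DMSO livers. Fetal against hepatectomy polysomes had 8 collagens higher and 1 lower, where 23.5% and 26.7% of features were. Col14a1 was 2.32-fold higher (1.21, SE 0.199, adjusted p = 6.48e-06) and Col1a1 1.99-fold higher (0.99, SE 0.154, adjusted p = 2.58e-06). Col1a2 (0.75), Col5a2 (0.52), Col3a1 (0.51), Col4a1 (0.42), Col12a1 (0.36) and Col5a1 (0.32) were also higher, and Col8a1 was lower (-0.55). Against refed polysomes 6 were higher and 4 lower in the fetus, against 23.6% and 27% of features. The higher ones were Col1a1 (0.94), Col12a1 (0.72), Col14a1 (0.58), Col1a2 (0.53), Col4a1 (0.41, adjusted p = 0.00299) and Col5a2 (0.38), and the lower ones Col8a1 (-0.47), Col10a1 (-0.38), Col27a1 (-0.37) and Col4a3 (-0.28). Single arrays ended 6 of these 10 calls, with a highest adjusted p of 0.0601 to 0.14. Leaving out refed array 3 ended those of Col1a2, Col5a2 and Col14a1, refed array 2 those of Col5a2 and Col8a1, refed array 1 those of Col4a3 and Col10a1, and fetal array 4 those of Col5a2 and Col14a1. Against hepatectomy polysomes, fetal array 4 or hepatectomy array 3 ended the calls of Col3a1, Col5a1 and Col12a1, hepatectomy array 2 those of Col3a1 and Col5a1, fetal array 3 those of Col5a1 and Col12a1, and hepatectomy array 1 that of Col12a1. Hepatectomy against refed polysomes gave 0 higher and 2 lower, against 7.86% and 4.83% of features. At an unadjusted p under 0.05 the counts were 1 and 5, against 13.3% and 11.3%. The 2 past the threshold were Col27a1 (-0.44, adjusted p = 0.00836) and Col14a1 (-0.63, adjusted p = 0.0478). The Col14a1 call was lost without any of refed arrays 1 and 2 and hepatectomy arrays 2 and 3, and in the rapamycin livers, which leave out the arrays with the conflicting label, neither passed (Col27a1 -0.12, adjusted p = 0.65, and Col14a1 -0.48, adjusted p = 0.166). Under cyclic loess scaling the fetal against hepatectomy polysome counts were 6 and 2, against 25% and 25.1% of features. In rapamycin livers, fetal against hepatectomy polysomes kept the calls of Col1a1, Col1a2, Col5a2, Col4a1 and Col14a1. Those of Col3a1 (0.39, adjusted p = 0.0706), Col12a1 (0.23, adjusted p = 0.137), Col5a1 (0.23, adjusted p = 0.122) and Col8a1 (-0.10, adjusted p = 0.579) missed the threshold. Col4a3 was called lower there (-0.23, adjusted p = 0.0374), which it was not with DMSO. Of all features 26.2% were higher and 27.1% lower.

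Genes that act on collagen moved in their own ways between states. The shares of all features to set beside these counts are 12.4% higher and 5.03% lower after hepatectomy, and 28.1% and 19% in the fetus. Of 17 tested genes of collagen synthesis and secretion, 7 were higher and 0 lower after hepatectomy than in refed liver, and 7 were higher and 0 lower in the fetus. Serpinh1, the collagen chaperone HSP47, was higher by 1.02 and 1.45, and Plod2, a lysyl hydroxylase, by 0.96 and 1.98. Of 10 tested genes of processing and cross-linking, 3 and 4 were higher and 0 and 1 lower, among them Pcolce, which speeds removal of the C-terminal propeptide (1.75 and 1.60), and Lox, which cross-links fibres (1.27 and 1.15). Col1a1 was not among the genes higher after hepatectomy. Of 11 tested genes of collagen breakdown and its inhibitors, 2 were higher after hepatectomy and 0 lower, including the inhibitor Timp1 by 2.40, and 6 were higher and 2 lower in the fetus. Stellate and fibroblast markers other than collagens were mixed in the fetus, with 2 of 15 higher (Thy1 by 2.27) and 5 lower (Hgf at -1.37). In such bulk samples fewer cells of a type and less RNA per cell cannot be told apart. The part of these cells in the collagen levels was not tested.

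Polysomal RNA was then set against total RNA within each state, over both injections. All 25 collagens had a lower mean in polysomes than in total RNA in each state, save 1 after hepatectomy and 2 in the fetus under cyclic loess scaling. The decrease passed the threshold for 17 of 25 collagens in refed liver, 24 after hepatectomy and 10 in fetal liver, where 8.7%, 22.8% and 13.7% of all features were lower. No collagen was higher, against 24.1%, 37.3% and 19.5% of features, and none at an unadjusted p under 0.05, against 30.4%, 39.2% and 25.2%. The median collagen difference was -0.32 in refed, -0.32 in hepatectomy and -0.18 in fetal liver, while the median over all features was 0.097, 0.083 and 0.029. The fibrillar collagens had the lowest class medians, at -0.52, -0.53 and -0.34, and passed in 9, 10 and 6 of 10. The 3 basement membrane collagens had medians of -0.35, -0.27 and -0.18 and passed in 3, 3 and 1. The 12 other collagens had medians of -0.23, -0.27 and -0.15 and passed in 5, 11 and 3.

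**Figure D3:**
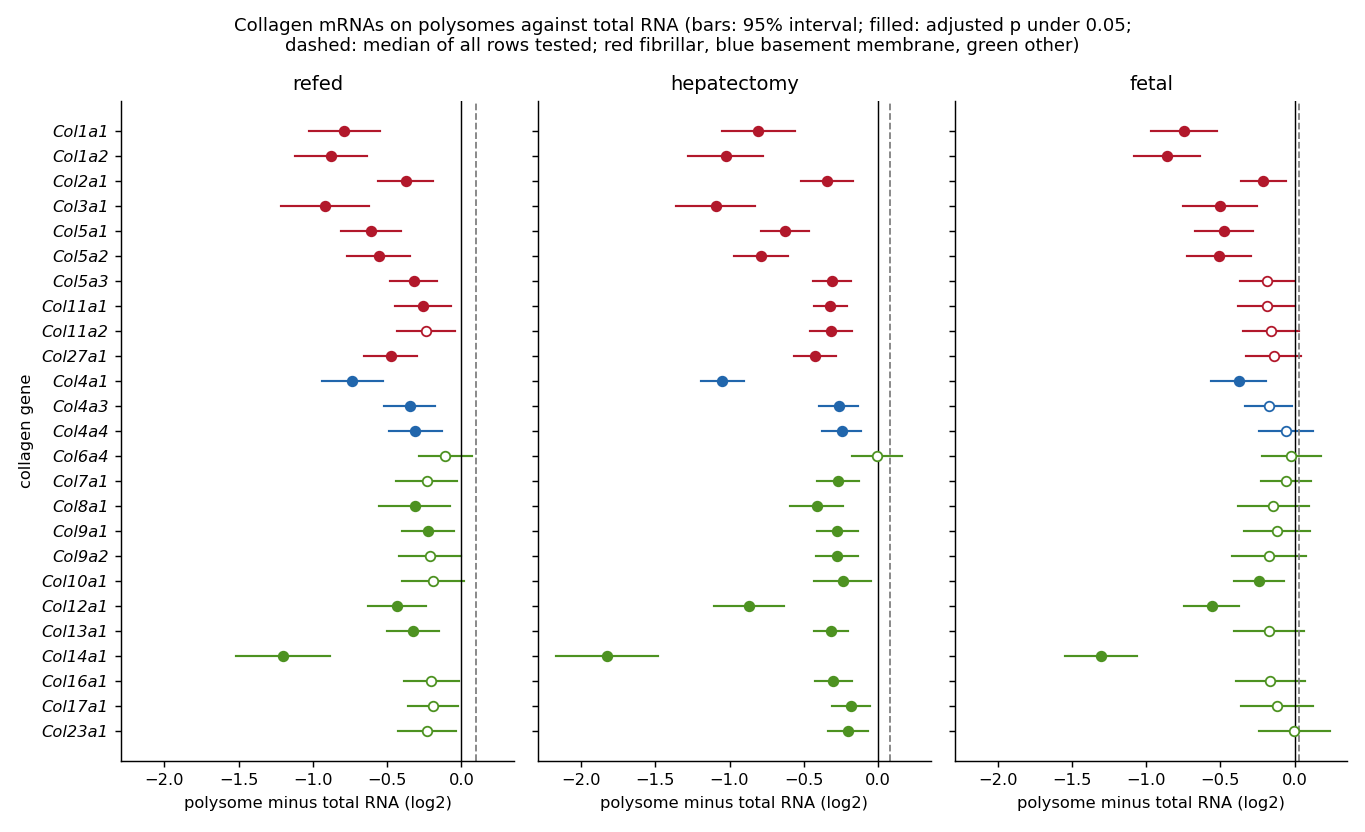
Polysome minus total log2 difference of each of the 25 collagens in refed, hepatectomy and fetal liver, with 95% confidence intervals. Filled points had an adjusted p under 0.05 in limma, and the dashed line is the median of all tested features. All points lie at or below 0 with the deposited scaling (under cyclic loess 1 hepatectomy and 2 fetal points are above it), and Col14a1 is the lowest in each state.

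Col14a1 showed the largest decrease of the family in each state. In DMSO polysomes it read 8.43, 8.71 and 8.04 in refed liver, 8.31, 7.50 and 7.49 after hepatectomy and 8.84, 8.75, 9.10 and 9.22 in the fetus, each below every total RNA array of its state. Polysomes held 2.30-fold less in refed liver (-1.20, SE 0.144, adjusted p = 0.000227), 3.55-fold less after hepatectomy (-1.83, SE 0.158, adjusted p = 1.89e-06) and 2.47-fold less in the fetus (-1.31, SE 0.115, adjusted p = 2.01e-06). Within single livers, polysome minus total ran from -1.85 to -0.69 in the 6 refed livers, from -2.20 to -1.60 in the 6 hepatectomy livers and from -1.76 to -0.81 in the 8 fetal livers. Of all features, 0.147%, 0.0276% and 0.258% had a lower difference than Col14a1.

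The type I chains gave similar values in all 3 states. Col1a1 read 8.62, 8.36 and 8.32 in refed DMSO polysomes, 8.69, 8.15 and 8.30 after hepatectomy and 9.25, 9.24, 9.39 and 9.61 in the fetus. The polysome minus total differences were -0.79, -0.80 and -0.74, or 1.73-, 1.75- and 1.68-fold less in polysomes (SE 0.109, 0.112 and 0.104; adjusted p = 0.000482, 7.11e-05 and 7.74e-05). Col1a2 read 8.85, 8.79 and 8.38 in refed DMSO polysomes, 8.82, 8.42 and 8.12 after hepatectomy and 9.19, 9.05, 9.19 and 9.39 in the fetus. Its differences were -0.88, -1.03 and -0.86 (adjusted p = 0.000296, 1.33e-05 and 2.29e-05). Polysomes and total RNA did not overlap for Col1a2 in any state, or for Col1a1 in the adult states.

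Col3a1 and Col4a1 had smaller differences in the fetus than in adult liver, which are tested below. Col3a1 read 8.59, 8.55 and 8.02 in refed DMSO polysomes, 8.38, 7.86 and 7.68 after hepatectomy and 8.48, 8.25, 8.49 and 8.71 in the fetus. Its differences were -0.92 (1.89-fold less), -1.09 (2.13-fold less) and -0.50 (1.42-fold less). Col4a1 read 7.36, 7.39 and 7.26, then 7.44, 7.36 and 7.18, then 7.63, 7.66, 7.78 and 7.94 in the same order. Its differences were -0.73 (adjusted p = 0.000316), -1.05 (adjusted p = 2.15e-07) and -0.38 (adjusted p = 0.00345). In the fetus the polysome and total arrays of both genes overlapped, and in the adult states they did not.

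The type V chains and Col12a1 were also lower in each state. Col5a1 read 7.81, 7.61 and 7.39 in refed DMSO polysomes, 7.62, 7.40 and 7.27 after hepatectomy and 7.53, 7.62, 7.89 and 7.96 in the fetus, with differences of -0.61, -0.63 and -0.48. Col5a2 read 7.38, 7.16 and 6.98, then 7.08, 7.04 and 6.96, then 7.50, 7.32, 7.62 and 7.76, with differences of -0.56, -0.79 and -0.51. The Col12a1 differences were -0.43, -0.87 and -0.56, each with separate polysome and total arrays. Col27a1 was lower in refed (-0.48) and hepatectomy polysomes (-0.42), with a fetal difference of -0.14 that missed the threshold (adjusted p = 0.231).

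Across single livers, 9 of the 25 collagens (36%) were lower in polysomes than in total RNA in each of the 20 livers, against 4.58% of all features. They were Col1a1, Col1a2, Col3a1, Col5a1, Col5a2, Col4a1, Col12a1, Col13a1 and Col14a1. All polysome arrays lay below all total arrays for 12, 19 and 4 collagens in refed, hepatectomy and fetal liver, against 3.7%, 9.85% and 3.68% of features. After hepatectomy the collagen that missed the threshold was Col6a4 (-0.009, adjusted p = 0.931). In fetal liver the 10 called were Col1a1, Col1a2, Col2a1, Col3a1, Col5a1, Col5a2, Col4a1, Col10a1, Col12a1 and Col14a1. The weakest calls were lost when single arrays were left out: Col11a1, Col8a1 and Col9a1 in refed liver without any of 10, 9 and 10 of the 12 arrays, Col10a1 after hepatectomy without any of 8 of 12, and Col2a1 and Col10a1 in the fetus without any of 4 and 7 of 16.

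The size of the difference was set against intensity. The features were split by mean intensity into 3 equal bands, and the 4 brightest collagens lay in the middle band, and their median differences were -0.90, -1.06 and -0.80, against 0.189, 0.176 and 0.119 for all features of that band. The other 21 lay in the lowest band, with medians of -0.31, -0.31 and -0.17 against -0.045, -0.029 and -0.020. Dim lists of genes typical of other tissues were lower too. The 5 cartilage genes had medians of -0.17, -0.16 and -0.046, and the 5 skeletal muscle genes -0.27, -0.25 and -0.16, the latter about the size of the dim collagens. The part of dim signal in the values of the 21 collagens was not tested.

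Scaling moved the collagens and the other features. Centring on the median took the collagen medians to -0.55, -0.50 and -0.26 and those of all features to -0.128, -0.101 and -0.053, and cyclic loess took them to -0.31, -0.33 and -0.18 and to -0.026, -0.028 and -0.005. With arrays centred on the median, 25, 24 and 13 collagens were lower, against 27.4%, 39.1% and 20.5% of features, and under cyclic loess 16, 21 and 10 were, against 15%, 30.3% and 17.2%. All 25 were below 0 in each state under median centring. The calls lost under cyclic loess were those of Col4a4, Col8a1, Col9a1 and Col11a1 in refed liver, Col4a4, Col10a1 and Col17a1 after hepatectomy, and Col10a1 in the fetus. The share of lower calls among all features was 26.5%, 37.9% and 41.3% as deposited, 68.7%, 62.5% and 60.3% with median centring and 50.5%, 53.2% and 53% with cyclic loess. In the hepatectomy rapamycin livers alone 20 collagens were lower, against 14.4% of features. The calls lost there were those of Col7a1 (adjusted p = 0.0643), Col10a1 (0.186), Col17a1 (0.0803) and Col23a1 (0.188).

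Genes that serve collagens were mostly lower in polysomes as well. The shares of all features called lower were 8.7%, 22.8% and 13.7% in refed, hepatectomy and fetal liver, and list medians are over the measured members, tested or not. Of 17 tested genes of collagen synthesis and secretion, 7, 12 and 9 were lower, with list medians of -0.26, -0.48 and -0.40. The lysyl hydroxylases Plod1 (-0.75, -0.98 and -0.78) and Plod3 (-0.67, -0.90 and -0.68) were lower in every state. Creb3l1, a transcription factor that activates secretory genes, was higher in refed (0.46) and hepatectomy polysomes (0.45), the only list member called higher. Of 10 tested genes of processing and cross-linking, 7, 10 and 5 were lower (medians -0.43, -0.62 and -0.47), including Lox (-0.63, -1.22 and -1.07), Loxl2 (-0.69, -1.37 and -0.66) and the propeptide protease Adamts2 (-0.60, -0.99 and -0.52).

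Genes for proteins that bind or degrade collagen were also called lower, against the same shares of all features. Of 5 tested collagen receptors, from 8 measured, 4, 5 and 5 were lower (medians -0.34, -0.34 and -0.36), among them the integrin chains Itga1 (-0.71, -0.96 and -0.44) and Itgb1 (-0.65, -0.83 and -0.46). Of 6 tested basement membrane partners, from 9 measured, 5, 5 and 4 were lower (-0.35, -0.36 and -0.31), with the laminin chain Lamc1 at -0.80, -1.21 and -0.91. Of 7 tested other fibrous matrix genes, from 12 measured, 6, 7 and 5 were lower (-0.48, -0.56 and -0.55), with biglycan, Bgn, at -0.74, -0.92 and -1.48. Of 11 tested genes of breakdown and its inhibitors, from 15 measured, 5, 6 and 5 were lower (-0.28, -0.17 and -0.37), with the gelatinase Mmp2 at -0.84, -1.05 and -1.01. The 8 genes of TGF-beta and CTGF signalling, which drives collagen transcription, had medians near 0 (-0.052, -0.067 and 0.051), with 1, 2 and 2 lower and 1, 3 and 2 higher.

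Of 15 stellate and fibroblast markers, 5, 5 and 6 were lower and 2, 3 and 0 higher, with medians of -0.39, -0.11 and -0.27. Of all features 8.7%, 22.8% and 13.7% were lower and 24.1%, 37.3% and 19.5% higher in refed, hepatectomy and fetal liver. The receptors Pdgfrb (-0.96, -1.38 and -1.19) and Pdgfra (-0.92, -1.47 and -0.84) were lower in each state, while the transcription factor Lhx2 was higher in refed (0.46) and hepatectomy polysomes (0.56). The summed linear intensity of the list in DMSO livers was 7766 to 8142 in refed polysomes against 10300 to 11180 in refed total RNA, 9636 to 11950 against 12520 to 13070 after hepatectomy and 8305 to 10360 against 10350 to 11080 in the fetus, and the fetal ranges overlapped. Of 13 endothelial markers, 8, 9 and 6 were lower (medians -0.37, -0.39 and -0.44), against the same shares of all features. The 6 hepatocyte markers had medians of -0.086, -0.12 and -0.019. The part of these cells in the collagen differences was not tested.

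**Figure D4:**
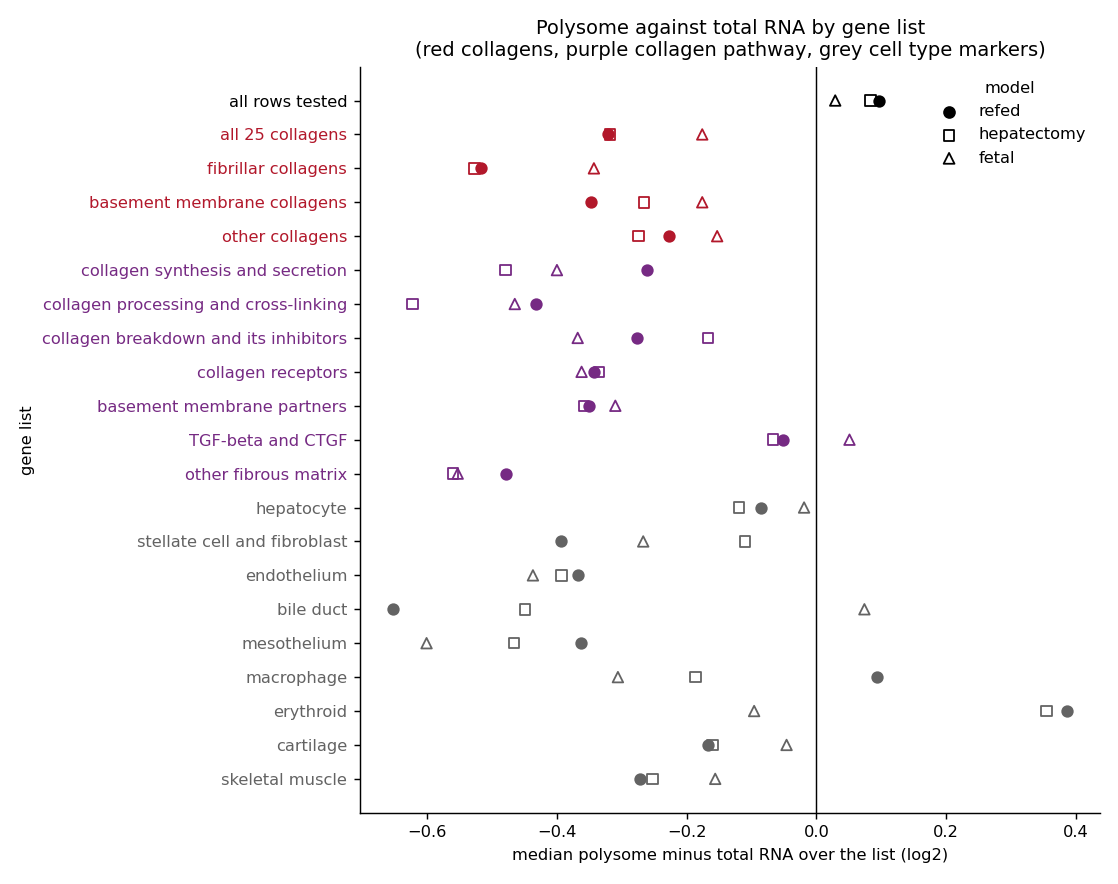
Median polysome minus total log2 difference of the collagens, the other gene lists and the cell type marker lists. Circles are refed, squares hepatectomy and triangles fetal liver. In refed liver the median of all collagens lies among those of the synthesis, processing, receptor and basement membrane lists. In hepatectomy and fetal liver it is less negative than each of these lists. In each state it lies below hepatocyte markers and below the median of all tested features.

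The polysome minus total difference was next compared between states. No collagen differed between hepatectomy and refed liver, where no feature did, and 3 were lower at an unadjusted p under 0.05 (2.34% of features). Those included Col14a1 (-0.63, 95% interval -1.06 to -0.19, adjusted p = 0.975) and Col12a1 (-0.44, interval -0.73 to -0.15, adjusted p = 0.925). Col1a1 differed by -0.017 with an interval of -0.35 to 0.32. In the fetus the decrease was smaller than in refed liver for Col4a1 (0.36, SE 0.114, adjusted p = 0.031) and Col27a1 (0.33, SE 0.108, adjusted p = 0.0318), 2 of 25 against 3.07% of features higher and 12% lower. It was smaller than after hepatectomy for Col4a1 (0.67, SE 0.114, adjusted p = 0.000128) and Col3a1 (0.59, SE 0.181, adjusted p = 0.0199), against 5.8% of features higher and 12.9% lower.

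The sign was broader than the calls. The fetal difference was the less negative for 22 of 25 collagens against refed liver and for 23 of 25 against hepatectomy liver, while the median over all features was -0.078 and -0.07. Median centring turned these medians to 0.064 and 0.032. The share of lower calls moved with it from 79.6% to 46.2% and from 69% to 49.8%, and to 58.5% and 52.3% with cyclic loess. The Col4a1 polysome minus total values ran from -0.77 to -0.16 in the 8 fetal livers and from -1.19 to -0.82 in the 6 hepatectomy livers, without overlap. Those of Col3a1 ran from -0.84 to -0.24 and from -1.23 to -0.94, also without overlap. In rapamycin livers alone, which leave out the arrays with the conflicting label, the Col4a1 difference against hepatectomy liver was 0.67 (adjusted p = 0.0114) and that of Col3a1 0.67 (adjusted p = 0.117). The Col3a1 call was also lost without hepatectomy DMSO polysome array 3 or total array 1, and the calls of Col4a1 and Col27a1 against refed liver were lost without any of 7 and 10 single arrays. The call of Col4a1 against hepatectomy liver passed without each single array in turn. With each liver as a block, 4 collagens passed against refed and 5 against hepatectomy liver, where 32.9% and 37.5% of features passed. With only the fetal and refed arrays in the fit, the 2 calls against refed liver became 0 (adjusted p = 0.0761 for Col4a1 and 0.0775 for Col27a1), where 10.3% of features passed.

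Rapamycin was compared with DMSO in each state and fraction. No collagen passed the threshold of limma in any of the 6 comparisons. In refed and fetal liver no feature passed in either fraction (0%). After hepatectomy 2.26% of features were higher and 4.1% lower in polysomes, and 1.47% and 3.54% in total RNA. At an unadjusted p under 0.05, 1 collagen was lower in refed total RNA, 1 higher in hepatectomy polysomes and 3 higher and 1 lower in hepatectomy total RNA, and none elsewhere. The shares of all features in the same order were 4.68%, 10.4%, 8.96% and 14.7%.

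The fibrillar collagens had the higher values in the rapamycin livers after hepatectomy, without passing the test. All 10 were above DMSO in polysomes (median 0.18) and in total RNA (median 0.20), against medians over all features of -0.014 and -0.015. Over all collagens 22 of 25 were above DMSO in polysomes and 23 in total RNA, and the rapamycin arrays lay wholly above DMSO for 9 in total RNA (13% of features) and for 2, or 8%, in polysomes (11.3% of features). Median centring left 23 and 24 above DMSO and cyclic loess 22 and 23, while the share of lower calls among all features moved from 64.5% to 42.3% in polysomes and from 70.6% to 44.5% in total RNA with median centring, and to 56.3% and 55.8% with cyclic loess.

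Col5a2 had the largest positive difference. It read 8.30, 7.95 and 8.19 in rapamycin total RNA and 7.38, 7.16 and 7.38 in rapamycin polysomes after hepatectomy, against the DMSO values given above. The differences were 0.39 in total RNA (95% interval 0.13 to 0.64, adjusted p = 0.0767) and 0.28 in polysomes (interval 0.021 to 0.53, adjusted p = 0.163), with separate arrays in polysomes. Without rapamycin total array 2 the total RNA comparison passed (adjusted p = 0.0439).

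The type I and III chains showed the same sign with wider intervals. After hepatectomy with rapamycin Col1a1 read 9.56, 9.27 and 9.41 in total RNA and 8.58, 8.33 and 8.78 in polysomes, or 0.27 (interval -0.074 to 0.62) and 0.18 (-0.17 to 0.53) above DMSO. Col1a2 read 9.87, 9.63 and 9.78 in total RNA, above all DMSO arrays, and 8.71, 8.46 and 8.77 in polysomes, or 0.37 (adjusted p = 0.201) and 0.19 above DMSO. Col3a1 read 9.46, 9.28 and 9.45 and then 8.27, 8.14 and 8.40, or 0.37 (adjusted p = 0.219) and 0.29 above DMSO. Without DMSO polysome array 1 the polysome comparison of Col3a1 passed (adjusted p = 0.042).

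Col12a1 had the largest negative difference. It read 7.94, 7.55 and 7.73 in rapamycin total RNA after hepatectomy, below DMSO by 0.38 on average (log2 difference -0.38, interval -0.71 to -0.05, adjusted p = 0.158) with overlapping arrays. Without DMSO total array 1 the comparison passed (adjusted p = 0.0447). Col4a1 read 8.43, 8.36 and 8.43 in total RNA and 7.41, 7.34 and 7.33 in polysomes, and Col14a1 9.63, 9.62 and 10.10 and then 7.86, 7.97 and 8.23. Their total RNA differences were 0.028 (interval -0.17 to 0.23) and 0.13 (interval -0.35 to 0.62), and Col5a1 read 8.22, 8.14 and 8.27 and then 7.66, 7.56 and 7.67.

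In refed liver 24 of 25 collagens were below DMSO in total RNA, with a median of -0.098 against 0.035 over all features, and 11 of 25 were above it in polysomes. The largest difference was that of Col27a1, which read 8.38, 8.09 and 8.21 in rapamycin total RNA and 7.81, 7.83 and 7.84 in rapamycin polysomes, against 8.10, 7.98 and 7.93 in DMSO polysomes and the DMSO total values given above. It lay wholly below DMSO in both fractions, by 0.32 in total RNA (log2 difference -0.32, interval -0.58 to -0.068, adjusted p = 0.24) and 0.18 in polysomes (-0.18, interval -0.43 to 0.074, adjusted p = 0.999), where 5.11% and 9.17% of features were lower without overlap. With rapamycin Col1a1 read 9.04, 9.32 and 8.83 in refed total RNA and 8.46, 8.32 and 8.23 in polysomes, overlapping DMSO in both, and its polysome difference had an interval of -0.44 to 0.24. Col3a1 read 9.36, 9.17 and 9.22 in refed total RNA and 8.54, 8.47 and 8.32 in polysomes, and also overlapped.

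In fetal liver 21 collagens were above DMSO in polysomes (median 0.09) and 14 in total RNA (median 0.006), and under median centring and cyclic loess these counts were 24 and 20, and 16 and 14. Arrays of the same number deviated together in the fetus and were also compared pair by pair. In polysomes 7 collagens were above DMSO in each of the 4 pairs, against 7.79% of features, and 1 was below in each, against 15.6%. The 7 were Col1a1, Col1a2, Col5a1, Col5a2, Col4a1, Col8a1 and Col9a2. The pair differences of Col1a1 were 0.13, 0.12, 0.079 and 0.20 and those of Col5a2 0.26, 0.28, 0.14 and 0.17, while Col12a1 was the one below, at -0.035, -0.34, -0.38 and -0.17. In total RNA 0 were above and 1, Col7a1, was below in each pair, against 5.72% and 8.82%. The replicate number was also used as a block, over the fetal arrays of both fractions together. No collagen and no feature then passed the threshold of limma in either fraction. At an unadjusted p under 0.05 1 collagen, Col12a1, was lower in polysomes and 0 differed in total RNA. Fetal Col1a1 with rapamycin read 10.37, 10.15, 10.19 and 10.30 in total RNA and 9.38, 9.36, 9.47 and 9.81 in polysomes, overlapping DMSO in both. Fetal Col14a1 read 10.53, 10.57, 10.27 and 10.17 in total RNA and 8.77, 8.86, 9.46 and 9.30 in polysomes, and overlapped as well.

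The remaining rapamycin values of the leading collagens overlapped DMSO, except those of Col5a1 in refed total RNA and Col4a1 in refed polysomes. Col1a2 read 9.53, 9.53 and 9.35 in refed total RNA and 8.77, 8.65 and 8.65 in refed polysomes, and 10.41, 10.15, 10.11 and 10.14 in fetal total RNA and 9.19, 9.22, 9.34 and 9.68 in fetal polysomes. Fetal Col3a1 read 9.19, 8.85, 8.98 and 9.46 in total RNA and 8.44, 8.51, 8.74 and 8.92 in polysomes, and refed Col14a1 read 9.73, 9.33 and 9.62 and then 8.66, 8.40 and 8.45. The refed total RNA differences were -0.18 for Col14a1 and -0.18 for Col1a2.

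Col5a1 read 8.24, 7.94 and 8.11 in refed total RNA, 7.64, 7.52 and 7.65 in refed polysomes, 8.37, 8.14, 8.23 and 8.50 in fetal total RNA and 7.70, 7.76, 7.92 and 8.02 in fetal polysomes. Col5a2 read 7.68, 7.53 and 7.61, then 7.26, 7.20 and 7.10, then 8.22, 8.07, 8.12 and 8.07, then 7.76, 7.60, 7.76 and 7.93 in the same order. The Col5a1 arrays in refed total RNA lay below all DMSO arrays, by 0.23 on average (log2 difference -0.23, interval -0.52 to 0.058), where 5.11% of features were lower without overlap. The Col5a2 difference there was -0.26 (interval -0.56 to 0.043).

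Col4a1 read 8.19, 8.10 and 7.96 in refed total RNA, 7.48, 7.54 and 7.42 in refed polysomes, 8.49, 8.14, 8.25 and 8.32 in fetal total RNA and 7.72, 7.82, 8.01 and 8.16 in fetal polysomes. Its 3 refed polysome arrays lay above the DMSO arrays, by 0.14 on average (interval -0.15 to 0.43), where 8.66% of features were higher without overlap.

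**Figure D5:**
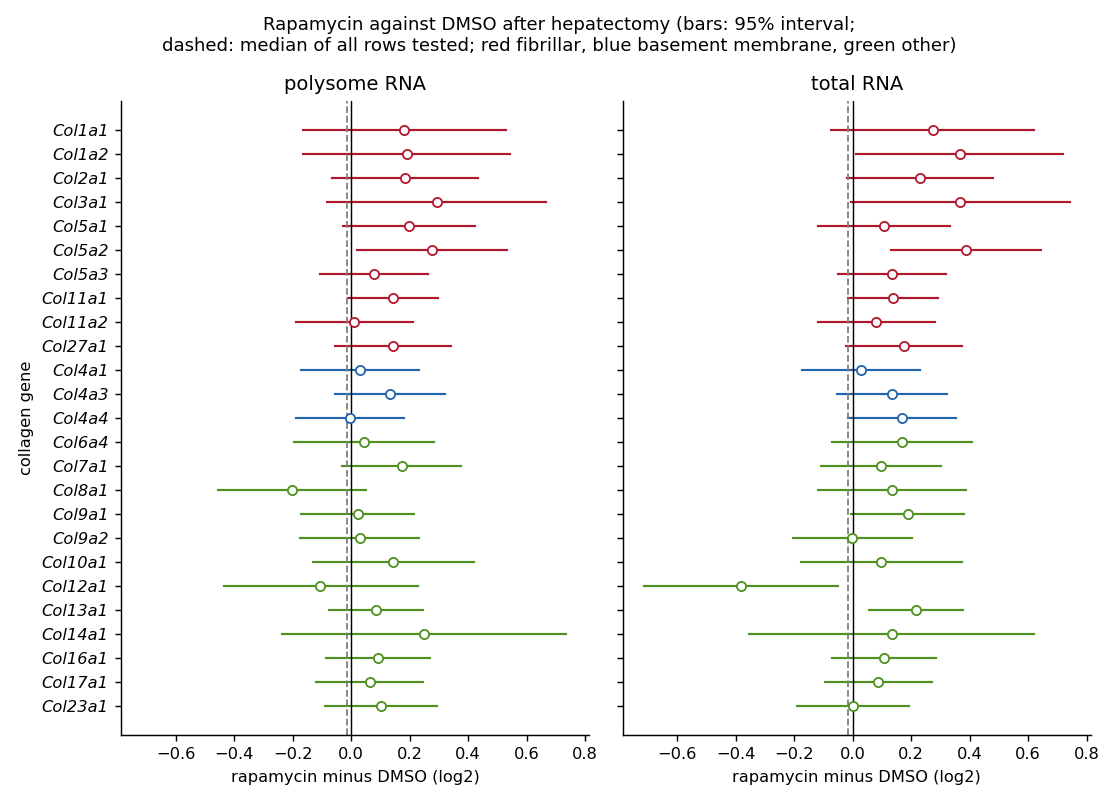
Rapamycin minus DMSO log2 difference of the 25 collagens after hepatectomy, in polysomal and total RNA, with 95% confidence intervals. Most points lie above 0, Col5a2 is highest in total RNA and Col12a1 lowest, and none had an adjusted p under 0.05.

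The change between fractions under rapamycin was tested as an interaction. It passed for no collagen and no feature in any state (0%). At an unadjusted p under 0.05 it passed for 1 collagen, lower, in the fetus (0.23% of features) and none in adult liver. Other genes of these livers did differ after hepatectomy. Of 13 endothelial markers 4 were higher with rapamycin in each fraction, against 2.26% of all features in polysomes and 1.47% in total RNA. The list medians were 0.38 in polysomes and 0.39 in total RNA, and Tie1 was higher by 0.61 and 0.53. The stellate marker Pdgfrb was higher in polysomes by 0.50 (adjusted p = 0.0311), the only one of 15, and Tgfb2, a TGF-beta ligand, was higher by 0.99 and 0.92. The part of these cells in the collagen values was not tested.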

How the data were processed

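Polysomal and total RNA of rat livers, read as 20 livers by replicate number, were hybridised to 40 Affymetrix Rat Gene 1.0 ST arrays from 100 ng of RNA each. The deposited intensities are the authors' RMA values on a linear scale, per the submitters' processing notes, which give no version. The sources used here do not give which arrays were normalised together. RMA forces the arrays of a set onto 1 distribution, so a value is relative to the other transcripts of its fraction and a change in total RNA per cell is not seen. Logarithms to base 2 were taken with no pseudocount. Their values on the arrays ran from 3.77 to 28447 before the logarithm, and the number of arrays limits the precision. No pair of arrays was near-identical (smallest root mean square log2 difference 0.195).

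Features with a symbol and a mean log2 value above the 30th percentile (6.7) were tested, 10860 in all, with limma 3.58.1 in R 4.3.3 (group means, moderated variances with an intensity trend, Benjamini-Hochberg adjustment over all tested features, threshold 0.05). Comparisons within a state used the arrays of that state, and comparisons between states all 40 arrays, 21 comparisons in all. The polysome against total fit was tested on simulated refed and fetal arrays with independent noise. The simulation held no shared liver and did not cover the other comparisons. Gene symbols come from the platform annotation, with 306 features of several symbols left unnamed, and all 25 collagens were matched to RefSeq (GRCr8) by gene number with no change of symbol. RefSeq promoters were held for 20 of them, and none are shown for Col1a1, Col2a1, Col3a1, Col12a1 and Col14a1.

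Polysome and total arrays of the same injection and number were read as the same liver, which the titles do not state. Their deviations from the group means correlated at 0.328 to 0.818. DMSO and rapamycin arrays of the same number correlated at -0.619 to 0.392 in refed, -0.065 to 0.276 in hepatectomy and 0.425 to 0.751 in fetal liver, so numbers were taken as pairs between injections in the fetus only. The collagens, classes, pathway lists and marker lists were chosen with earlier results of these data known. Named were type I, III, IV (Col4a1), V and XIV collagens with a value for every array, each collagen past the threshold, the largest differences of a class, and up to 4 list members. The array values of Col4a3, Col12a1 and Col27a1 were added after their values were seen. Alternatives were the filter, scaling, variance trend, arrays in the fit, replicate block, and leaving out arrays. The rapamycin livers alone and the fetal differences within pairs were added after seeing the data.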

Additional observations from a re-analysis of the deposited data

Results flagged for a closer look

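Among 100 groups of 4 fetal arrays, 1 for each collagen, injection and fraction, 5 held an array farther from the others than Dixon's critical value for the gap over the range allows, and chance alone gives about 1 in 20. Col1a2 was high in fetal rapamycin total array 1, at 10.410 on the log2 scale. Col2a1 was low in fetal DMSO polysome array 2, at 7.399. Col11a1 was low in fetal DMSO total array 2, at 6.800, the widest gap of the 5 (0.955 of the range). Col27a1 was high in fetal rapamycin polysome array 4, at 7.891. Col23a1 was high in fetal DMSO total array 4, at 7.791.

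The polysome minus total difference itself differed between states for 3 collagens in the interaction test of limma. That of Col4a1 was less negative in the fetus by 0.357 against refed and by 0.670 against hepatectomy liver, that of Col27a1 by 0.334 against refed and that of Col3a1 by 0.589 against hepatectomy liver. Of all features 3.07% were higher and 12% lower against refed, and 5.8% and 12.9% against hepatectomy liver. Both calls against refed liver were lost with only the compared arrays in the fit (adjusted p = 0.0761 for Col4a1 and 0.0775 for Col27a1). In rapamycin livers alone that of Col3a1 was lost (adjusted p = 0.117), while that of Col4a1 against hepatectomy liver passed.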

How the results depend on the processing

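Counts of collagens past the threshold moved by more than 1.5 times as follows. Without the filter on low values, hepatectomy against refed polysomes gave 1 in place of 2 (8.36% of features). With only the arrays compared in the fit it also gave 1 (14.8%). Fetal against refed total RNA gave 16 in place of 9 with median centring (52.6% of features) and 16 with cyclic loess (50%). Fetal against hepatectomy total RNA gave 10 in place of 5 with cyclic loess (38.3%). For the polysome minus total difference, fetal against refed liver (2) gave 5 with median centring (14.9% of features) and 0 with only the arrays compared (10.3%). Fetal against hepatectomy liver (2) gave 5 with median centring (18.5%) and 4 with cyclic loess (18.6%). In rapamycin livers alone, an alternative chosen after seeing the data, hepatectomy against refed polysomes gave 0 in place of 2 (9.29% of features). In total RNA that comparison gave 2 in place of 4 (3.9% of features higher and 2.58% lower). Fetal against hepatectomy total RNA gave 8 in place of 5 (26.2% and 19.1%). The fetal against hepatectomy difference gave 1 in place of 2 (6.08% of features).

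With the liver as a replicate block, the polysome minus total difference gave 4 collagens for fetal against refed liver (32.9% of features). It gave 5 for fetal against hepatectomy liver (37.5%). Col9a1 in refed polysomes against total RNA missed the threshold (adjusted p = 0.0547). Between states the arrays share only a number, and that block gave 15 in fetal against refed total RNA (50.4% of features). It changed no other count by over 1.5 times.

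Leaving out 1 array at a time gave 1 to 3 collagens for hepatectomy against refed polysomes, 0 to 3 and 1 to 4 for the fetal difference against refed and hepatectomy liver, and 0 to 1 for rapamycin after hepatectomy in each fraction. Polysomes against total RNA ranged over 14 to 20, 23 to 24 and 8 to 11 collagens in refed, hepatectomy and fetal liver. Signs that turned belonged to differences that missed the threshold. In total RNA these were Col3a1 in fetal against hepatectomy (-0.102 to 0.141), Col14a1 and Col5a2 in hepatectomy against refed (-0.252 to 0.059 and -0.208 to 0.003) and Col4a1 in fetal against refed liver (-0.190 to 0.058). For rapamycin after hepatectomy they were Col4a1 in polysomes (-0.043 to 0.085) and total RNA (-0.029 to 0.088) and Col14a1 in total RNA (-0.024 to 0.259). Cyclic loess took the median of all features in polysomes against total RNA from 0.097, 0.083 and 0.029 to -0.026, -0.028 and -0.005. The number of arrays, 3 or 4 a group, limits the precision, and the 21 collagens of the lowest intensity band lie nearest to background.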
